A study of Mus musculus with 6 samples.

Results

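Transcripts of 7 erythroid genes (Alas2, Slc4a1, Car1, Klf1, Gata1, Tfrc and Fech) and of the adult alpha and beta globin families were followed on 6 Affymetrix arrays of CD4-CD8- (double-negative, DN) cells from cultured fetal mouse thymus. The members were chosen by name and not by a rule on their measured values, though with earlier results of these data known. They were every probe set annotated to exactly 1 of the 7 symbols, plus those annotated only to several Hba or only to several Hbb genes. These 9 genes or families, of 12395 measured, held 18 of 22626 probe sets: 14 for the named genes, 3 for Hba-a1 and Hba-a2 together and 1 for Hbb-bs, Hbb-bt, Hbb-b1 and Hbb-b2 together.

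All cells came from C57BL/6 fetuses whose thymus lobes were taken on day 15 of gestation and cultured for 6 days, to the equivalent of day 21. The medium held either 10 nM TCDD (2,3,7,8-tetrachlorodibenzo-p-dioxin, a ligand of the aryl hydrocarbon receptor) or the solvent dioxane. DN cells were recovered either from the buffer that had been flushed over the lobes (emigrants) or from the ground lobes (thymocytes), and the DN fraction was obtained with magnetic beads against CD4 and CD8. The groups were emigrants with TCDD (2 arrays), emigrants with dioxane (2), thymocytes with TCDD (1) and thymocytes with dioxane (1). The submitters' titles number the emigrant samples 1 or 2, except 1 dioxane title without a number, which was taken here as number 1. The arrays are called emigrants 1 and emigrants 2. No source says whether arrays of a group or of a number came from shared or separate cultures. The p-values therefore reflect array-to-array spread alone, which may be technical. Fits without emigrants 1 are an exception: they keep 1 array a group, so their errors measure no spread between replicates.

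Red cells are built from progenitors under the transcription factors Gata1 and Klf1, which switch on heme synthesis, globin and membrane genes. Alas2 carries out the opening step of heme synthesis in red cells and Fech the closing one, in which iron enters the ring. Iron is taken up through the transferrin receptor Tfrc, which other dividing cells also use. In the mouse fetus red cells come from the yolk sac and then from the liver, while the thymus is the site of T cell development.

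Values are RMA levels in log2 units, made comparable between arrays by the authors' normalisation, and a difference of 1 is a factor of 2. The arrays' medians lay between 4.84 and 4.88. As a guide to signal without target, the highest of 27 bacterial control probe sets on each array read between 4.32 and 4.92, and a level under it has no measured height. The labelled cell type was checked on T-lineage genes: of 8 measured, 3 and 2 lay under that mark in emigrants 1 (TCDD and dioxane), 1 and 0 in emigrants 2 and none in thymocytes. Rag1, which cuts DNA in receptor rearrangement, read 4.03 and 3.72 in emigrants 1 with TCDD and with dioxane, 3.61 and 9.99 in emigrants 2 and 7.00 and 9.70 in thymocytes. Thy1, a surface protein of T cells looked up after the other values were known, read at most 5.69 in emigrants 1 and 8.60 to 9.70 on the other 4 arrays. Of the list, Cd3e, Cd3g, Cd3d, Bcl11b and Gata3 were also lower on both emigrants 1 arrays than on the other 4. Rag1, Ptcra and Dntt did not separate them, being lowest in emigrants 2 with TCDD. There Ptcra read 4.87 and Dntt 5.61, against 5.00 and 5.56, and 7.65 and 7.52, in emigrants 1. On Thy1 and part of the T-lineage genes emigrants 1 therefore stand apart, and results are given with and without them.

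The promoters of 6 members are shown because these genes are the regulators, the heme gene and the globins that the values below turn on, with Tfrc as the member whose values ran differently. Each line gives the 220 bases before a RefSeq start in build GRCm38.p6, 5′ to 3′ on the gene's own strand. Capitals mark the GATA motif (GATA with A or T before it and A or G after it), the CACC motif (CCNCNCCC), which factors of the Klf family bind, and CCAAT, each searched on both strands.
Gata1, chrX:7967911-7968130, minus strand: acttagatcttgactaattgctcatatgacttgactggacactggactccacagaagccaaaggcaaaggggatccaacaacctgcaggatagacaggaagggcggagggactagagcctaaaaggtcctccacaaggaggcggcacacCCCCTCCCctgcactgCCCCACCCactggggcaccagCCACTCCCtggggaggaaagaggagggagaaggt
Klf1, chr8:84901762-84901981, plus strand: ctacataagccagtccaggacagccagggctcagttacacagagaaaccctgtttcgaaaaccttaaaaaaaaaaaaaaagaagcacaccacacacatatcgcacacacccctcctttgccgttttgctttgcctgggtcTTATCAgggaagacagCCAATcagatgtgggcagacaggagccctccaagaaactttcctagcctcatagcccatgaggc
Alas2, chrX:150547197-150547416, plus strand: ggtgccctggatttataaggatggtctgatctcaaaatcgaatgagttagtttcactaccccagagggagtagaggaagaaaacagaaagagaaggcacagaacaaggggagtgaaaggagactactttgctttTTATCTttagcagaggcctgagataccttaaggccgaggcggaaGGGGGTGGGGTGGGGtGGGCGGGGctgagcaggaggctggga
Hba-a1, chr11:32283452-32283671, plus strand: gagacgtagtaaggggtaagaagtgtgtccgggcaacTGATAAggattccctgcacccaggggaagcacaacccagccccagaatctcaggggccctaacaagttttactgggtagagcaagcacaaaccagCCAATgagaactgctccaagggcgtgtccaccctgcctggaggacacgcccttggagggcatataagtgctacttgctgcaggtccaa
Hbb-bs, chr7:103827929-103828148, minus strand: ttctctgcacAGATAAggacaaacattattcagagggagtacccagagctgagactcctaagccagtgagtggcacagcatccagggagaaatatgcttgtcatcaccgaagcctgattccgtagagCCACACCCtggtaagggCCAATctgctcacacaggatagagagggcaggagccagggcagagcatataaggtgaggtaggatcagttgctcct
Tfrc, chr16:32608676-32608895, plus strand: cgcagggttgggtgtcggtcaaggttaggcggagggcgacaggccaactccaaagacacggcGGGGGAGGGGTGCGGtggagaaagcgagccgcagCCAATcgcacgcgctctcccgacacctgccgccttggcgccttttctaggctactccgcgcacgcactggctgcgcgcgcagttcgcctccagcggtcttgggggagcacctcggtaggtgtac

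In the 250 bases before the start, a GATA motif stood in the windows of Klf1, Alas2, Hba-a1 and Hbb-bs and in none of Gata1, Tfrc and Hbb-bt, another beta globin gene that the beta set reads, and 26.6% of 32817 promoter windows of that length held one. CACC matches stood in Gata1 (3), Alas2 (4, of which 3 overlap), Hbb-bs (1), Hbb-bt (1) and the Tfrc window shown (3, overlapping), against 45.9% of all windows with at least 1. CCAAT stood in Klf1, Hba-a1, Hbb-bs, the Tfrc window shown and Hbb-bt (3 matches), against 33.8% of all windows. Shifted by 3 bases, the windows of Hba-a1 and Hba-a2 were identical over 247 of 247 bases, and the array likewise reads these genes through shared probe sets. Of 10 gene names looked up for these windows, 8 matched the table. A match describes the letters only.

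The transcription factors were measured above the control mark in emigrants 1. Gata1, which drives erythroid, megakaryocyte and mast cell genes, read 6.60 with TCDD and 7.05 with dioxane in emigrants 1. It read 4.24 and 4.42 in emigrants 2, both under their controls, and 4.59 and 4.91 in thymocytes. Klf1, the erythroid Krüppel-like factor that activates beta globin, read 7.27 and 6.18 in emigrants 1, 4.96 and 5.10 in emigrants 2 and 5.05 and 5.33 in thymocytes. Both emigrants 1 arrays were above the other 4 for each factor, by at least 1.70 for Gata1 and 0.85 for Klf1.

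The heme genes had the same high arrays, and in them the dioxane array was the higher. Alas2 read 7.13 with TCDD and 8.86 with dioxane in emigrants 1, 4.29 and 4.36 in emigrants 2 and 4.63 and 4.74 in thymocytes. Fech has 4 probe sets, and its brightest read 8.92 and 10.37 in emigrants 1, 7.29 and 7.48 in emigrants 2 and 7.34 and 7.50 in thymocytes. A second set of Fech read 7.08 and 8.00 in emigrants 1 and 4.40 to 5.19 elsewhere. Another read 5.92 and 6.56 against 3.21 to 3.41, where all 4 values are under the controls. The remaining Fech set was level on all 6 arrays, from 5.08 to 5.46.

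Globin transcripts, which encode the chains of hemoglobin, were also high in emigrants 1, and every globin family set stayed above the controls on all arrays. The brightest alpha globin set read 13.19 with TCDD and 13.06 with dioxane in emigrants 1, 7.41 and 6.62 in emigrants 2 and 9.11 and 8.20 in thymocytes. The other alpha sets read 11.88 and 11.28, and 8.98 and 8.25, in emigrants 1, against 5.26 to 7.52 and 4.54 to 6.36 on the other 4 arrays. The beta globin set read 13.43 and 13.36 in emigrants 1, 7.95 and 7.72 in emigrants 2 and 9.31 and 7.79 in thymocytes. Thymocytes therefore lay between the emigrant numbers for all 3 alpha sets, above both emigrants 2 arrays on each of their own arrays. For beta globin the dioxane thymocyte array lay within the values of emigrants 2.

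The membrane gene and the carbonic anhydrase were measured above the controls in emigrants 1 and not elsewhere. Slc4a1, the band 3 anion exchanger of the red cell membrane, read 7.24 with TCDD and 7.64 with dioxane in emigrants 1 on its brightest set and 4.32 to 4.41 on the other 4 arrays, all under the controls. A second Slc4a1 set read 7.73 and 8.42 against 3.46 to 3.94, and the remaining one lay between 3.50 and 3.65 on all arrays, under every control. Car1, the carbonic anhydrase abundant in red cells, read 10.89 and 9.44 in emigrants 1, 3.97 and 4.08 in emigrants 2 and 4.27 and 4.18 in thymocytes. The last 4 values are under the controls, so its gap of at least 5.16 between emigrants 1 and the rest is bounded by background.

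**Figure D1:**
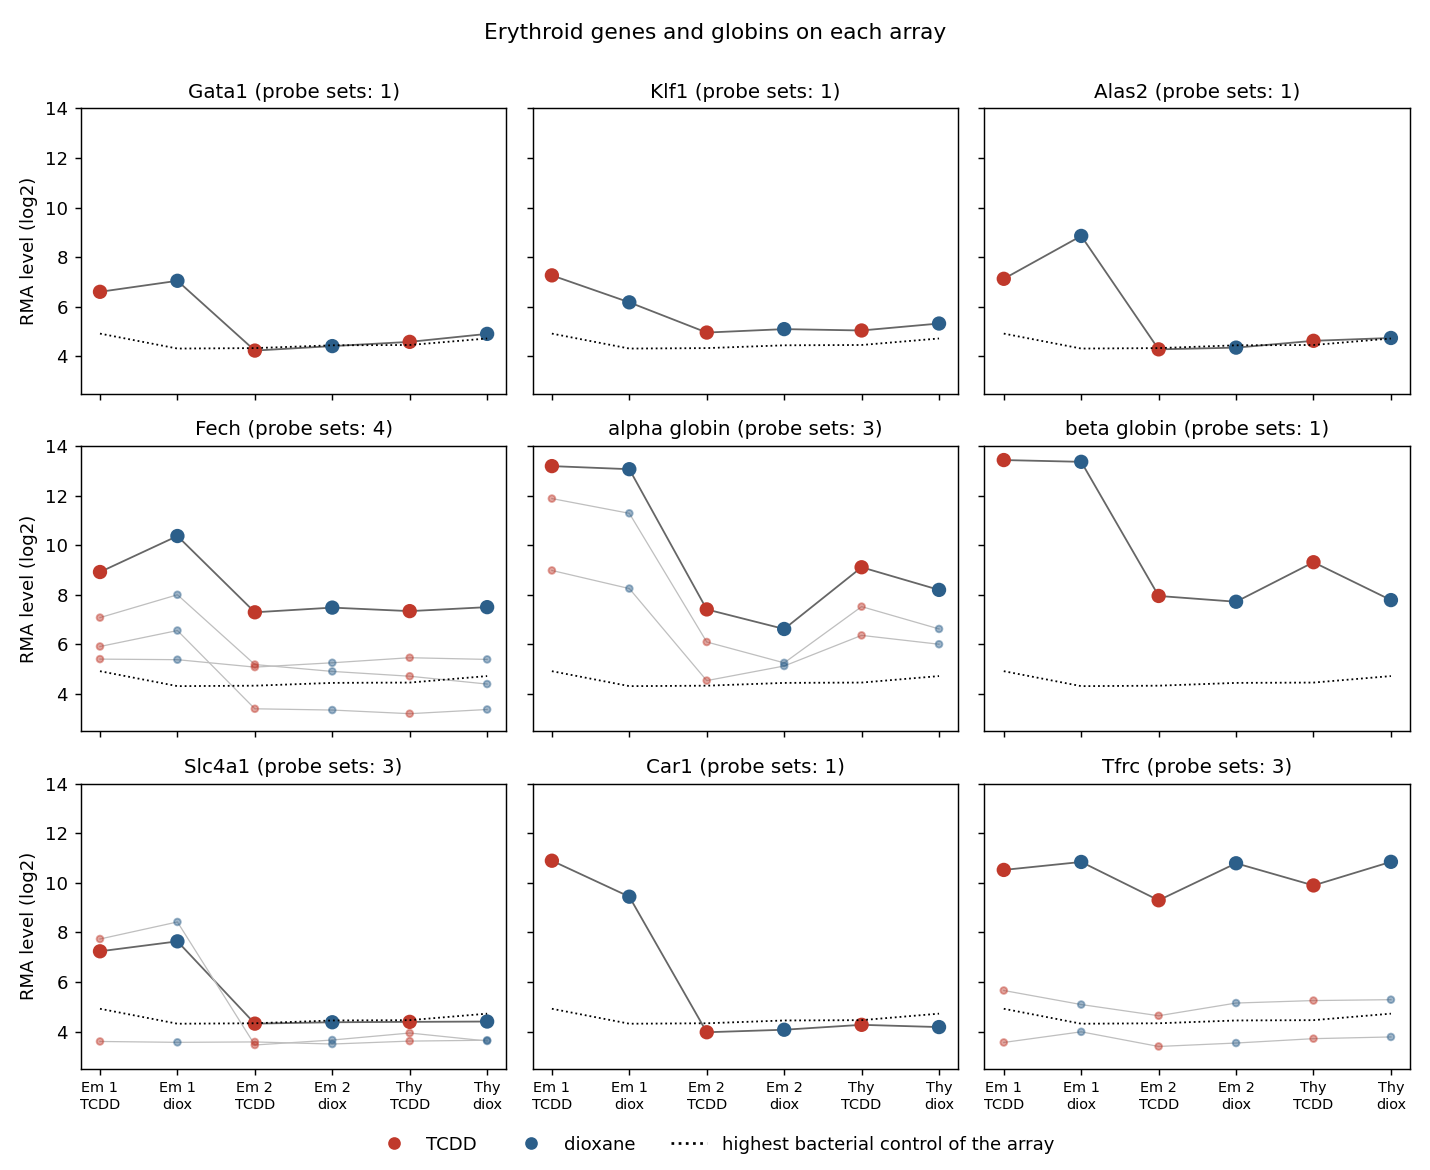
RMA levels (log2, vertical axis) of the members on the 6 arrays (horizontal axis: Em, emigrants with their number; Thy, thymocytes; diox, dioxane), with a large point for the brightest probe set of a gene and small points for its other sets; grey lines join the values of 1 probe set. Emigrants 1 are the high arrays for every gene but Tfrc, whose brightest set lies between 9.29 and 10.84 everywhere.

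Counted over probe sets, 12 of the 18 members had both emigrants 1 arrays at least 1 log2 unit above all other 4 arrays, a pattern found in 0.804% of all 22626 probe sets. The 12 covered Gata1, Alas2, Fech, Slc4a1, Car1 and both globin families. Just inside the threshold stood the brightest Fech set (1.42), and just outside it Klf1 (0.85). The 6 others were Klf1, the 3 Tfrc sets and 1 set each of Fech and Slc4a1. Since this pattern was known when it was counted, and cells and their RNA were pooled, it is a description. In such bulk samples fewer cells of a type and less RNA per cell cannot be told apart.

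Tfrc was high on all arrays on its brightest set and did not share the emigrants 1 pattern. There it read 10.52, 9.29 and 9.89 with TCDD (emigrants 1, emigrants 2 and thymocytes) and 10.84, 10.78 and 10.84 with dioxane. The TCDD arrays averaged 9.90 ± 0.61 and the dioxane arrays 10.82 ± 0.03 (SD, n = 3 each), and the groups did not overlap. Of the 18 members this set alone had every TCDD array below every dioxane array, as did 4.62% of all probe sets; the opposite order was found in no member and in 3.33% of all. A second Tfrc set, above the controls on all arrays at 4.64 to 5.66, did not show this: its pairs gave 0.57 in emigrants 1, -0.51 in emigrants 2 and -0.04 in thymocytes, and 0.01 ± 0.28 (SE) over both sources. The remaining set read 3.40 to 3.99, under the controls on all arrays. The array's own control sets for this receptor read 2.93 to 3.82 on all arrays, also under the controls.

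The question of the design was which transcripts differ when DN cells are exposed to TCDD. With emigrants and thymocytes in 1 model that held source as a term (n = 3 for TCDD and 3 for dioxane), the Tfrc difference was -0.92 ± 0.33 (log2, SE), and it did not pass after adjustment over all probe sets (limma adjusted p = 0.945). The exact two-sided permutation test over the 6 arrays gave p = 0.1, the smallest that 3 against 3 allows. Groups that do not overlap always give this value, so the test adds nothing to the order stated above. The same test gave p of at least 0.5 for the brightest set of every other member. The Tfrc pairs gave -0.32 in emigrants 1, -1.49 in emigrants 2 and -0.95 in thymocytes. Without emigrants 1 the difference was -1.22 ± 0.18 (adjusted p = 0.138), and without the TCDD array of emigrants 2 it was -0.58.

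The list of proliferation genes was lower with TCDD as well, with no gene of it called. Of 9 measured, 7 were lower with TCDD in all 3 pairs, as were 17.4% of all genes, and their medians were -0.21 in emigrants 1, -0.86 in emigrants 2 and -0.62 in thymocytes, against -0.02, -0.02 and 0.01 over all genes. Their summed level (log2) was 12.88, 12.38 and 12.48 with TCDD and 13.00, 13.14 and 13.32 with dioxane in the same order, and no member of the list was under the controls. The excess of 3′ over 5′ signal, which grows as RNA is degraded, was larger with TCDD in each pair for actin (3.77, 3.36 and 4.15 with TCDD, 3.06, 3.01 and 3.48 with dioxane). For Gapdh it was larger in both emigrant pairs (5.60 and 4.75 with TCDD, 4.75 and 4.69 with dioxane) but not in thymocytes (5.86 and 6.10). The part of either in the Tfrc difference was not tested.

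The other members had no common direction with TCDD. In emigrants 1, where they were well measured, Alas2 and Fech were lower with TCDD by more than 1 log2 unit (-1.73 and -1.45), while Klf1 and Car1 were higher by as much (1.09 and 1.45). These were 2 of 18 probe sets lower and 2 of 18 higher, against 2.32% and 3.46% of all probe sets. The other Fech sets that were high in emigrants 1 gave -0.92 and -0.64, and the level one gave 0.02. Gata1 differed by -0.44 there, the Slc4a1 sets above the controls by -0.40 and -0.69, and the brightest alpha and beta globin sets by 0.12 and 0.07. Each of these values compares 1 array with 1 array and has no replicate.

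In the other pairs the members with the widest differences were Tfrc, given above, and the globins. The brightest alpha globin set was higher with TCDD by 0.91 in thymocytes and 0.79 in emigrants 2, and the beta set by 1.53 and 0.23. In thymocytes beta globin was the 1 member past 1 log2 unit, where 2.25% of all probe sets were as much higher, and no member was as much lower (2.56% of all). In emigrants 2 the brightest Tfrc set was as much lower (1.96% of all), and no member was as much higher (2.98%). The weakest alpha set went the other way in emigrants 2, at -0.59, with 0.73 in emigrants 1 and 0.36 in thymocytes.

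By sign alone, 6 of the 18 members were lower with TCDD in all 3 pairs, as were 17.5% of all probe sets. They were Gata1, Alas2, the brightest sets of Fech, Slc4a1 and Tfrc, and the Tfrc set under the controls. Another 3 were higher in all 3 pairs, against 14.4% of all: 2 alpha globin sets and the beta set. For Alas2 and the brightest Slc4a1 set the differences outside emigrants 1 were at most 0.11 in size and lay at or near the controls.

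**Figure D2:**
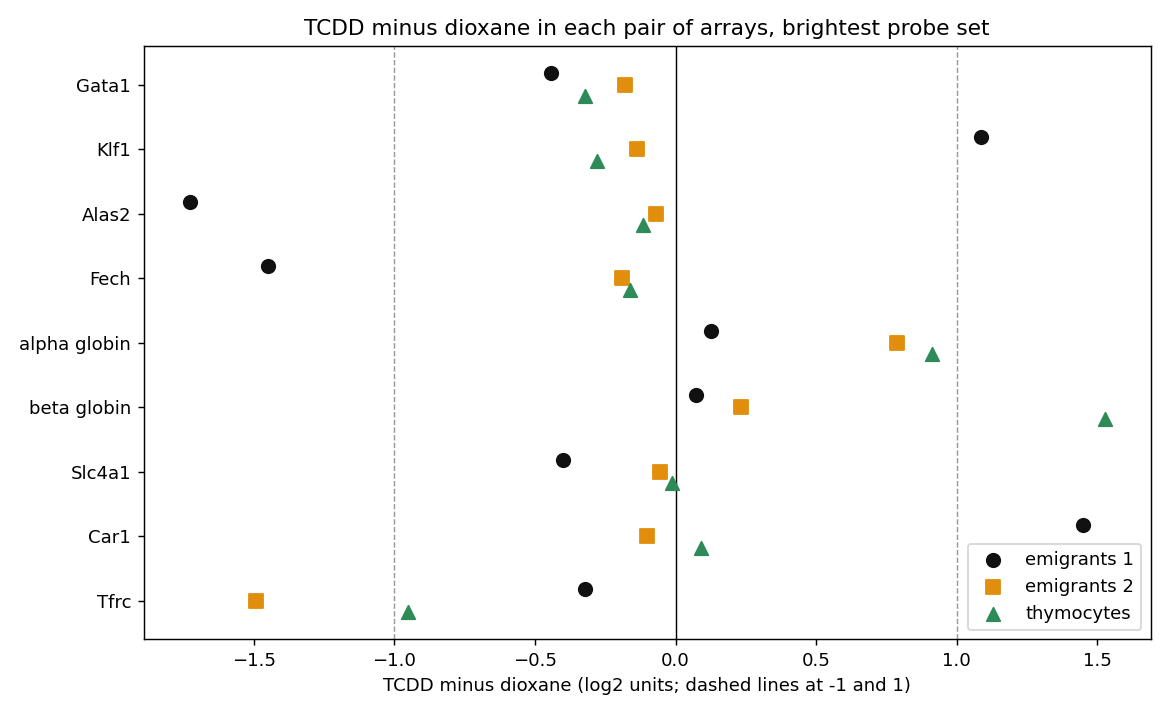
TCDD minus dioxane (log2 units, horizontal axis) for the brightest probe set of each member (vertical axis) in emigrants 1, emigrants 2 and thymocytes, 1 point a pair of arrays. Alas2 and Fech lie at -1.73 and -1.45 and Klf1 and Car1 at 1.09 and 1.45 in emigrants 1 and near 0 in the other pairs, while Tfrc is below 0 and both globins above 0 in all 3.

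None of these differences passed the test across arrays. Over both cell sources limma called 0 of 22626 probe sets (0% of all, smallest adjusted p = 0.755), with 1138 at an unadjusted p under 0.05, among them 1 member, the brightest Tfrc set. Alas2 had a difference of -0.64 ± 1.32, Fech -0.60 ± 0.83, Gata1 -0.32 ± 0.88, Slc4a1 -0.16 ± 1.08, Klf1 0.22 ± 0.66, Car1 0.48 ± 2.15, alpha globin 0.61 ± 2.13 and beta globin 0.61 ± 1.95 (SE), each with an adjusted p of 0.999. The members' median difference was -0.07, against -0.02 over all probe sets. For these 8 the gap between the emigrant numbers, which the model counts as spread, was 1.62 to 6.91 log2 units with TCDD and 1.08 to 6.44 with dioxane.

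Without emigrants 1, 4 arrays remained, 1 a group, and the errors shrank. No replicates were left, so these errors come from unequal TCDD differences between the sources and from limma's pooling over probe sets. They do not measure a spread between replicate arrays. The brightest alpha globin set then differed by 0.85 ± 0.11 and the next by 0.87 ± 0.11 (adjusted p = 0.135 and 0.134), beta globin by 0.88 ± 0.36 (adjusted p = 0.409) and Gata1 by -0.25 ± 0.11 (adjusted p = 0.454). The weakest alpha set differed by -0.12 ± 0.27. This fit has 1 residual degree of freedom and called 0 probe sets. In emigrants alone (2 arrays with TCDD against 2 with dioxane), limma called 0 of 22626 (0% of all; 485 at an unadjusted p under 0.05, no member among them). There Tfrc differed by -0.91 ± 0.45 and Alas2 by -0.90 ± 1.75 (adjusted p = 1.00 for each).

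A further comparison asked whether emigrants differ from thymocytes (4 arrays against 2, treatment in the model). The erythroid members were higher on average in emigrants, but by less than the spread among the emigrant arrays. Car1 averaged 7.09 ± 3.59 in emigrants and 4.23 ± 0.06 in thymocytes (SD, n = 4 and 2), a difference of 2.87 ± 2.28 (SE). Beta globin averaged 10.62 ± 3.21 and 8.55 ± 1.08 (difference 2.07 ± 2.07), Alas2 6.16 ± 2.23 and 4.69 ± 0.08 (1.47 ± 1.40), and Slc4a1 5.89 ± 1.79 and 4.40 ± 0.01 (1.49 ± 1.15). Tfrc averaged 10.36 ± 0.72 and 10.37 ± 0.67, a difference of -0.01 ± 0.35. Limma called 0 of 22626 probe sets (0% of all), with 1472 at an unadjusted p under 0.05 and no member among them.

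Leaving out emigrants 1 turned the sign of the brightest set of every member but Tfrc (-0.33 ± 0.18), while 2 further Fech sets stayed higher in emigrants (0.49 ± 0.11 and 0.09 ± 0.12). The brightest alpha globin set differed between emigrants 2 and thymocytes by -1.64 ± 0.11, with -1.40 ± 0.11 and -1.35 ± 0.27 for the other alpha sets (adjusted p = 0.0972, 0.0972 and 0.146). Beta globin differed by -0.71 ± 0.36, Gata1 by -0.42 ± 0.11 and Alas2 by -0.37 ± 0.11 (adjusted p = 0.367, 0.195 and 0.217). Alas2 and Gata1 were under the controls in emigrants 2, where a level has no measured height, so the size of their differences is not measured. The same holds for the brightest Slc4a1 set (-0.05) and Car1 (-0.20), under the controls on all 4 arrays left. Klf1 (-0.15) and the brightest Fech set (-0.03), above the controls, turned by small amounts. With 1 array a group, the errors of this fit are not a spread between replicates. The difference of the TCDD effect between emigrants and thymocytes was called for 0 of 22626 probe sets (0% of all; 174 at an unadjusted p under 0.05, no member). For Tfrc it was 0.04 ± 0.79 and for beta globin -1.37 ± 4.45.

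Some globin genes were also read by single-gene probe sets. Hba-x, the embryonic alpha-like globin, read at most 4.28 and the 3 sets of Hbb-bh1, an embryonic beta-like globin, 2.98 to 3.80, all under the controls on every array including emigrants 1. The single-gene sets of Hba-a1 and Hba-a2 read 3.33 to 4.53 and were likewise at or near the controls. In emigrants 1 the brightest set shared by these genes read 13.19 with TCDD and 13.06 with dioxane. A low reading of a single-gene set therefore does not show that a globin transcript was absent. Of the 2 sets of Hbb-b2, one read 5.39 with TCDD and 4.74 with dioxane in emigrants 1 and 2.89 to 3.41 elsewhere, and the other 4.69 to 5.63 on all arrays.

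Hbb-y, the embryonic epsilon-like beta globin of yolk-sac red cells, had a different pattern, and it was singled out after its values were seen. Of its 3 probe sets, 2 read 7.32 and 7.46 in thymocytes with TCDD and 5.29 and 5.29 in thymocytes with dioxane. On the 4 emigrant arrays they read 3.03 to 3.82, under the controls, also in emigrants 1 where adult beta globin read 13.43 and 13.36. The TCDD minus dioxane differences in thymocytes were 2.02 and 2.17, where 2.25% of all probe sets were higher by at least 1. The third set read 5.07 and 4.50 in thymocytes, a difference of 0.57, and 4.30 to 4.69 in emigrants. It lay under the controls on 4 arrays, thymocytes with dioxane among them, so the size of this difference is not measured. No replicate of the thymocyte arrays exists here, and the test for unequal TCDD differences in emigrants and thymocytes did not pass (-1.82 ± 0.60 and -2.25 ± 0.46, adjusted p = 1.00).

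**Figure D3:**
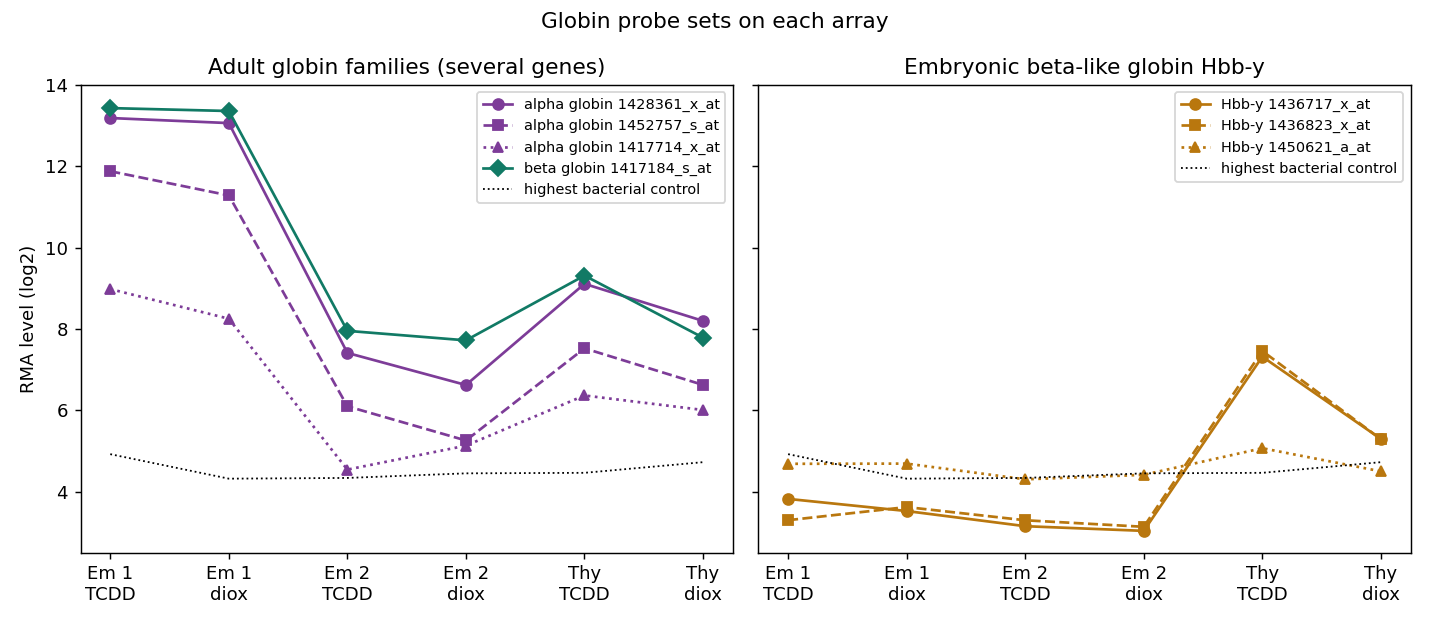
RMA levels (log2, vertical axis) on the 6 arrays (horizontal axis) of the 4 adult globin family probe sets (left) and the 3 Hbb-y sets (right), each line 1 probe set. The adult families peak in emigrants 1, with 13.43 and 13.36 for beta globin, while 2 Hbb-y sets peak in thymocytes with TCDD (7.32 and 7.46) and lie under the controls in all emigrants.

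Further erythroid genes were taken from 6 lists, of transcription factors, heme enzymes, iron and heme transport, membrane and surface, enzymes and cytoplasm, and erythropoietin and stem cell factor signalling. Of 75 listed, 64 were measured, and 15 of these had both emigrants 1 arrays at least 1 log2 unit above the other 4, against 0.984% of all 12393 genes. Among them were Tal1, a partner of Gata1 (8.10 with TCDD and 7.95 with dioxane in emigrants 1, 4.13 to 4.59 elsewhere), and Hemgn, a nuclear protein of erythroid cells (9.24 and 9.93, against 4.30 to 6.02). Rhag and Rhd, proteins of the Rh complex, read 7.47 and 8.30, and 9.06 and 9.69, against 3.14 to 3.33 and 5.00 to 5.40. Ermap, a red cell adhesion protein, read 9.03 and 8.71, against 4.12 to 4.58.

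The lists were unequal in this. Such genes made up 5 of 14 membrane genes, 4 of 12 transcription factors (Tal1, Lmo2, Bcl11a and Sox6), 3 of 9 red cell enzymes (Car2, Hemgn and Trim10) and 3 of 16 transport genes (Slc40a1, Abcb10 and Abcg2). None of the 6 listed heme enzymes and none of the 7 signalling genes was among them, by the brightest set of each. At 0.984% of all genes, none in lists this short is near the share of all genes. Alad was just short at a gap of 0.97 and Cpox, another heme enzyme, at 0.85. The heme enzymes Alas2 and Fech, counted as members and not in this list, met the rule with gaps of 2.38 and 1.42. Epor, the erythropoietin receptor, read 6.17 and 6.53 in emigrants 1 and 5.67 to 5.92 elsewhere. Epb42, a membrane skeleton protein, read 3.91 and 4.58, against 3.92 to 4.08, on its brightest set. Cpox, Epb42 and Tfr2, an iron-sensing receptor, each had 1 of 2 probe sets that met the rule.

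With TCDD the listed genes passed no test in any comparison (0 of 64 in each of the 4). Their median difference over both sources was -0.04, against -0.02 over all genes, with 6 higher and 12 lower in all 3 pairs, against 15.4% and 17.4% of all genes. Past 1 log2 unit, 1 of 64 was higher and 4 were lower in emigrants 1 (3.66% and 2.56% of all genes), 5 and 2 in emigrants 2 (3.43% and 2.16%), and 4 and 3 in thymocytes (2.83% and 2.79%). In emigrants 1, Alad, the enzyme after Alas2 in the heme pathway, was higher by 1.20, and 4 genes were lower by more than 1: Blvrb (-1.32), Alox15 (-1.15), Bpgm (-1.11) and Flvcr1 (-1.02). Hemgn was lower in all 3 pairs, with differences of -0.69 in emigrants 1, -1.42 in emigrants 2 and -1.31 in thymocytes. Car2, a carbonic anhydrase also made by macrophages, read 9.65 with TCDD and 5.76 with dioxane in thymocytes and 9.42 and 7.41 in emigrants 2, but 11.32 and 11.93 in emigrants 1. Myb, a factor of immature blood cells, read 5.47 and 10.66 in emigrants 2 and 9.81 and 11.31 in thymocytes.

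Transcripts of other blood cells were high in the same emigrants 1 arrays. Of 10 neutrophil genes 6 and of 10 macrophage genes 3 met the same rule, against 0.984% of all 12393 genes. Of 8 megakaryocyte and 8 mast cell genes none did, which is near that share. The summed level of the neutrophil list (log2) was 14.05 with TCDD and 13.26 with dioxane in emigrants 1, 11.42 and 9.77 in emigrants 2 and 8.64 and 8.80 in thymocytes. That of the macrophage list was 13.27 and 13.66, 11.90 and 10.10, and 9.15 and 9.17 in the same order. That of the T-lineage list ran the other way, with 9.45 and 9.44, 10.86 and 12.83, and 11.73 and 13.20. Pf4, a platelet chemokine also made by macrophages, was highest in emigrants 2 with TCDD (11.35, against 6.52 with dioxane). The part of any of these cells in the members' levels was not tested.

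**Figure D4:**
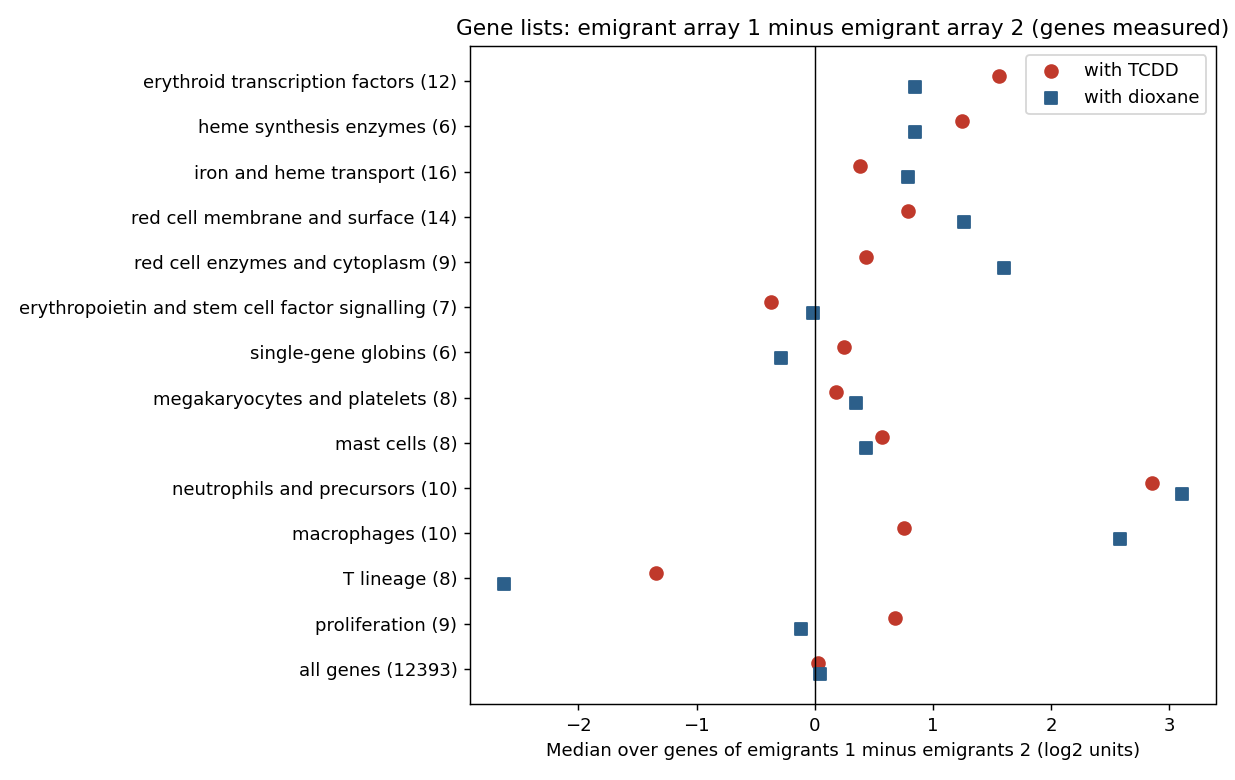
Median over the genes of each list (vertical axis, genes measured in brackets) of emigrants 1 minus emigrants 2 (log2 units, horizontal axis), with TCDD and with dioxane. Neutrophil genes stand at 2.86 and 3.11, the lists of erythroid transcription factors and heme enzymes between 0.85 and 1.56, and T-lineage genes at -1.34 and -2.63, against 0.03 and 0.04 over all genes. The other erythroid lists stand at 0.79 and 1.26 (membrane), 0.43 and 1.60 (enzymes), 0.39 and 0.79 (transport) and -0.37 and -0.02 (signalling). Single-gene globins stand at 0.24 and -0.28.

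Genes with the most similar profile were found as the smallest root mean square difference of mean-centred levels over the 6 arrays, among 9230 genes. Nearest to Alas2 were Tlcd4 (0.25 log2 units), Slc12a2 (0.44), Cmbl (0.44), F13a1 (0.45) and Ctse (0.47). Nearest to beta globin were Adamdec1 (0.42), Mpo (0.47), Hpgd (0.60), Cd5l (0.61) and Rhag (0.62). The first 4 of these were also nearest to alpha globin, with Cd163, a macrophage receptor, in place of Rhag. Nearest to Tfrc were Lrr1 (0.09), Trim37 (0.16), Hspd1 (0.17), Adk (0.18) and Frat2 (0.18). With 6 arrays, of which 2 stand apart, a small difference says little beyond sharing those 2 arrays.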

How the data were processed

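RNA of pooled DN cells was amplified and hybridised to 1 Affymetrix array a sample, per the labels. The deposited values are on the log2 scale and were made by the authors with RMA, per the submitters' processing notes, from the Bioconductor affy package named in the design text; no version is stated there. Of the deposited probe sets, 64 controls were left out and 22626 were tested. Of these 20380 carried 1 gene symbol, 691 several and 1555 none. Probe sets were the unit because the globin families followed as members are read by sets shared by several genes.

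The tests were limma's (version 3.58.1, R 4.3.3; lmFit, then eBayes), with p-values adjusted over all 22626 probe sets by the Benjamini-Hochberg method and calls at an adjusted p under 0.05. Residual degrees of freedom were 3 (both sources), 2 (emigrants), 3 (source) and 2 (difference of effects), so precision is limited by the number of arrays. Single pairs were described at 1 log2 unit. All member probe sets were named. A gene is represented by its set with the highest mean. The members, lists and rules were chosen with earlier results of these data known. On simulated data, where the code was tested, of 50 probe sets changed by 4 log2 units it called 44, 26, 44 and 0 in the 4 comparisons, so the last could not make calls at this size. Promoters are from RefSeq (GRCm38.p6).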

Additional observations from a re-analysis of the deposited data

How the results depend on the processing

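Limma called 0 probe sets under quantile normalisation, median subtraction, cyclic loess, an intensity trend, a filter on low probe sets, 1 probe set a gene and no covariate, which says little about stability where nothing was called. Of the members' differences over all alternatives, 231 kept their direction and 30 turned. The intensity trend, the filter, 1 probe set a gene, no covariate and a term for each pair of arrays left every difference unchanged. Directions could not turn there, so the 231 overstate stability. With the replicate block (a term for each pair of arrays) 0 probe sets and 0 members were called in either TCDD comparison. The emigrant pairs rest on the number alone, which 1 dioxane title lacks. The gap between numbers correlated at 0.56 over probe sets between TCDD and dioxane. The Tfrc difference between emigrants and thymocytes turned to 0.0186 with medians subtracted and 0.0459 with cyclic loess, and ranged over -0.27 to 0.25 as 1 array at a time was left out. Leaving out 1 array at a time turned the TCDD difference over both sources, with ranges of -1.07 to 0.44 for Gata1, -0.51 to 0.81 for Klf1, -1.85 to 0.72 for Alas2, -1.36 to 0.29 for Fech, -1.19 to 2.49 for alpha globin, -0.87 to 2.35 for beta globin, -1.07 to 0.80 for Slc4a1 and -1.55 to 2.40 for Car1. That of Tfrc stayed below 0, at -1.28 to -0.58. For 6 of the other 8 the lowest and highest values came without the dioxane arrays of emigrants 2 and emigrants 1, and for Klf1 and Car1 without the TCDD arrays of emigrants 1 and emigrants 2. Leaving out both emigrants 1 arrays, an alternative chosen after seeing the data, gave TCDD differences of -0.21 for Klf1 and -0.0054 for Car1. It gave emigrants minus thymocytes of -0.42 for Gata1, -0.15 for Klf1, -0.37 for Alas2, -0.0331 for Fech, -1.64 for alpha globin, -0.71 for beta globin, -0.0501 for Slc4a1 and -0.20 for Car1. These directions rest on the emigrants 1 arrays, and the cause was not tested. Signals under the controls limit the differences of Gata1, Alas2, Slc4a1 and Car1 outside emigrants 1.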

Other observations

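Genes of other blood cells also differed between TCDD and dioxane, none past the limma test. Kit, the stem cell factor receptor, read 8.56 with TCDD and 7.09 with dioxane in emigrants 2 and 8.62 and 6.57 in thymocytes, but 7.25 and 7.07 in emigrants 1. Over both sources its difference was 1.23 ± 0.43 (SE, limma adjusted p = 0.935). Pf4 was higher with TCDD in all 3 pairs, by 1.48 in emigrants 1, 4.83 in emigrants 2 and 1.15 in thymocytes (2.49 ± 0.72, adjusted p = 0.859). Ppbp, another platelet chemokine, read 8.78 with TCDD and 4.06 with dioxane in emigrants 2, 5.24 and 4.23 in thymocytes and 5.37 and 5.37 in emigrants 1. These genes were picked after their values were seen.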
